A study of Mus musculus with 18 samples.

Results

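The small leucine-rich proteoglycans are secreted matrix proteins built on a short array of leucine-rich repeats. The 10 genes described here are Dcn, Bgn and Aspn of class I, Fmod, Lum, Prelp, Omd and Kera of class II, Ogn of class III and Podn of class V. They were taken by gene name from the 34150 genes measured, with no threshold on their values. Ribosome-depleted total RNA was sequenced from the hearts of HXP mice, mice labelled MI for myocardial infarction, and control mice, with 6 libraries in each group. The series title says that HXP was given to mice modelling acute infarction. The sources used here do not give what HXP stands for, its dose or timing, whether each HXP mouse had an infarct, what the controls received, the part of the heart taken, or the strain, age and sex of the mice. Libraries are named by group and number, such as HXP 3. Values are FPKM, read fragments scaled by exon length and library depth. The length counts all annotated exons of a gene, 5838 bases for Dcn, 6099 for Bgn, 2448 for Lum and 2354 for Aspn. A gene whose RNA holds only part of its annotated exons thus has too low an FPKM. Levels, shares and ratios of different genes are therefore per annotated exon length, and which transcripts were present was not tested.

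These proteins decorate collagen fibrils and set their width, spacing and crosslinking. Decorin and biglycan carry chondroitin or dermatan sulfate chains, fibromodulin and lumican carry keratan sulfate chains, and asporin usually carries no such chain. Several of them bind TGF-beta, and soluble biglycan and decorin are known ligands of Toll-like receptors. In the heart they are made mainly by fibroblasts, and after an infarct they are laid down in the scar with the fibrillar collagens.

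A few libraries stood apart. MI 5 held RNA of lung epithelium, with a summed level of 1172 FPKM over 7 markers, where no other MI library exceeded 0.628 FPKM. MI 4 held 79.7 FPKM summed over 8 skeletal muscle markers, where no other MI library exceeded 6.41 FPKM. Those markers summed to at most 0.493 FPKM (lung) and 12.002 FPKM (skeletal muscle, in HXP 5) in HXP libraries, and to at most 0.180 and 1.65 FPKM in control libraries. Of the defining lung genes, Sftpd and Cldn18 were listed at 0 in every library but MI 5. Fat and the heart's outer lining also varied: 4 adipocyte markers summed to 0.0565 (HXP 6) to 452 FPKM (HXP 2) in HXP libraries, with 396 FPKM in HXP 3, to 0.593 to 332 FPKM in MI and to at most 1.53 FPKM in control libraries. Over 6 mesothelium markers the sum was 0.213 (HXP 6) to 105 FPKM (HXP 2) in HXP, 7.84 to 39.2 FPKM in MI and 0.0872 to 2.85 FPKM in control libraries. Reads of mitochondrial genes and their nuclear copies made up 20.5% (HXP 3) to 45.5% (HXP 6) of reads in HXP libraries. They made up 20.4% (MI 5) to 33.2% (MI 6) in MI and 36.4% to 42.6% in control libraries. The 8 cardiomyocyte markers summed to 4243 (HXP 3) to 8806 FPKM (HXP 1) in HXP libraries, with 7082 FPKM in HXP 6. They summed to 4484 (MI 5) to 7539 FPKM (MI 6) in MI and 6584 to 7851 FPKM in control libraries. The numbers that head the files form 3 runs, and the largest run held 2 HXP, 5 MI and 3 control libraries. The other runs held 4 HXP with 1 control library, and 1 MI with 2 control libraries, and those pairs are given as differences with no test.

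Most of the family sits in 3 gene clusters, and the upstream sequence of Fmod, Aspn and Ogn is shown as an example. Whether members of a cluster moved together more than other members was not tested. On GRCm38, Prelp (minus strand) lies 115.8 kb from Fmod on chromosome 1. Dcn, Lum and Kera follow each other on chromosome 10 with gaps of 47.0 and 34.2 kb. Aspn, Omd and Ogn follow each other on chromosome 13 with gaps of 14.9 and 15.2 kb. No other protein-coding gene lies wholly between these neighbours, although Aspn, Omd and Ogn all sit inside the opposite-strand gene Cenpp, which reached at most 1.34 FPKM and shares 7 exon bases with Aspn and 0 with the others. Bgn is on chromosome X and Podn on chromosome 4. RefSeq promoter entries on GRCm38.p6 were found for 8 of the 10 genes, without Dcn and Lum. The 250 bases before the start site of Fmod (chr1:134037004-134037253, plus strand), Aspn (chr13:49544193-49544442, plus strand) and Ogn (chr13:49607765-49608014, plus strand) read, 5′ to 3′ with motif matches in capitals (the RefSeq start of Ogn lies 31 bases before the GENCODE gene start, so Ogn positions count from the RefSeq start):
Fmod: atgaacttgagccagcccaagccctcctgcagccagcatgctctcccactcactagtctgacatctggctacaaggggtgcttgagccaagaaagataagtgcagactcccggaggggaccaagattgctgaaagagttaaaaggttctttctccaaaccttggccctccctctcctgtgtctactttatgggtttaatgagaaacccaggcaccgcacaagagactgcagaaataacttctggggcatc
Aspn: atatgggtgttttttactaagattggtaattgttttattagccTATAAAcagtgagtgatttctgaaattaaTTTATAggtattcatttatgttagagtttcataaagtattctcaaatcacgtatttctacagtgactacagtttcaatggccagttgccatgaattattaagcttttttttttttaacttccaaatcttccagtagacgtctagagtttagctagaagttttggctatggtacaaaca
Ogn: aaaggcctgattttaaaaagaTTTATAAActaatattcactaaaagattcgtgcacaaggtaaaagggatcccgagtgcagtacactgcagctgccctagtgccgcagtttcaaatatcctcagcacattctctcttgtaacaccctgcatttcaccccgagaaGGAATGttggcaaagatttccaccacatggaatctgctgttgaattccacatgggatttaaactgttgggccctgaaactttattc

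Motifs were searched by their letters on both strands. TATAAA, the letters of the TATA box, is in 12.4% of the 32851 promoter windows of this length, TGANTCA (AP-1) in 6.75%, CAGACA (SMAD) in 17.1% and CATTCC (TEAD) in 12.6%. The Aspn window holds TATAAA at -207 and its reverse complement TTTATA at -178 from the start site. The Ogn window holds TTTATA at -229 overlapping TATAAA at -227, and GGAATG, the reverse complement of the TEAD letters, at -86. In the windows of Fmod, Bgn, Prelp, Omd, Kera and Podn none of these letters was found, which says only that they are not in these bases. Counted from the RefSeq starts used, the GENCODE gene start is at -64491 and -65459 for Podn and at -326 for Kera. The windows of Podn and Kera thus lie inside the GENCODE genes.

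The comparison of MI with control hearts asks which genes differ after an infarct. All 9 members that could be tested rose in MI hearts (limma adjusted p of 0.0127 to 0.0287), by between 0.79 (Podn) and 5.36 (Fmod) on the scale of log2(FPKM + 1). Kera was too low to test. Of all 13710 genes tested, 40.1% were higher and 3.21% lower in MI by the same rule, so being higher in MI is common among all genes. The median log2 fold change was 2.50 over the 9 members and 0.27 over all genes. For 7 of the 9, every MI library lay above every control library, as did 27.9% of all genes. At an unadjusted p below 0.05 all 9 were higher, as were 50% of all genes. The share of higher against lower calls among all genes depended on the scaling: 5494 higher and 440 lower as deposited, 1869 and 2316 after quantile normalization, 2395 and 2068 after median-ratio scaling, and 3095 and 1283 after scaling to non-mitochondrial reads. Quantile normalization, which put the median of all genes at -0.06, left the 9 members higher by 0.43 to 5.13, and under each of these 3 scalings 8 of the 9 passed, without Podn.

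**Figure D1:**
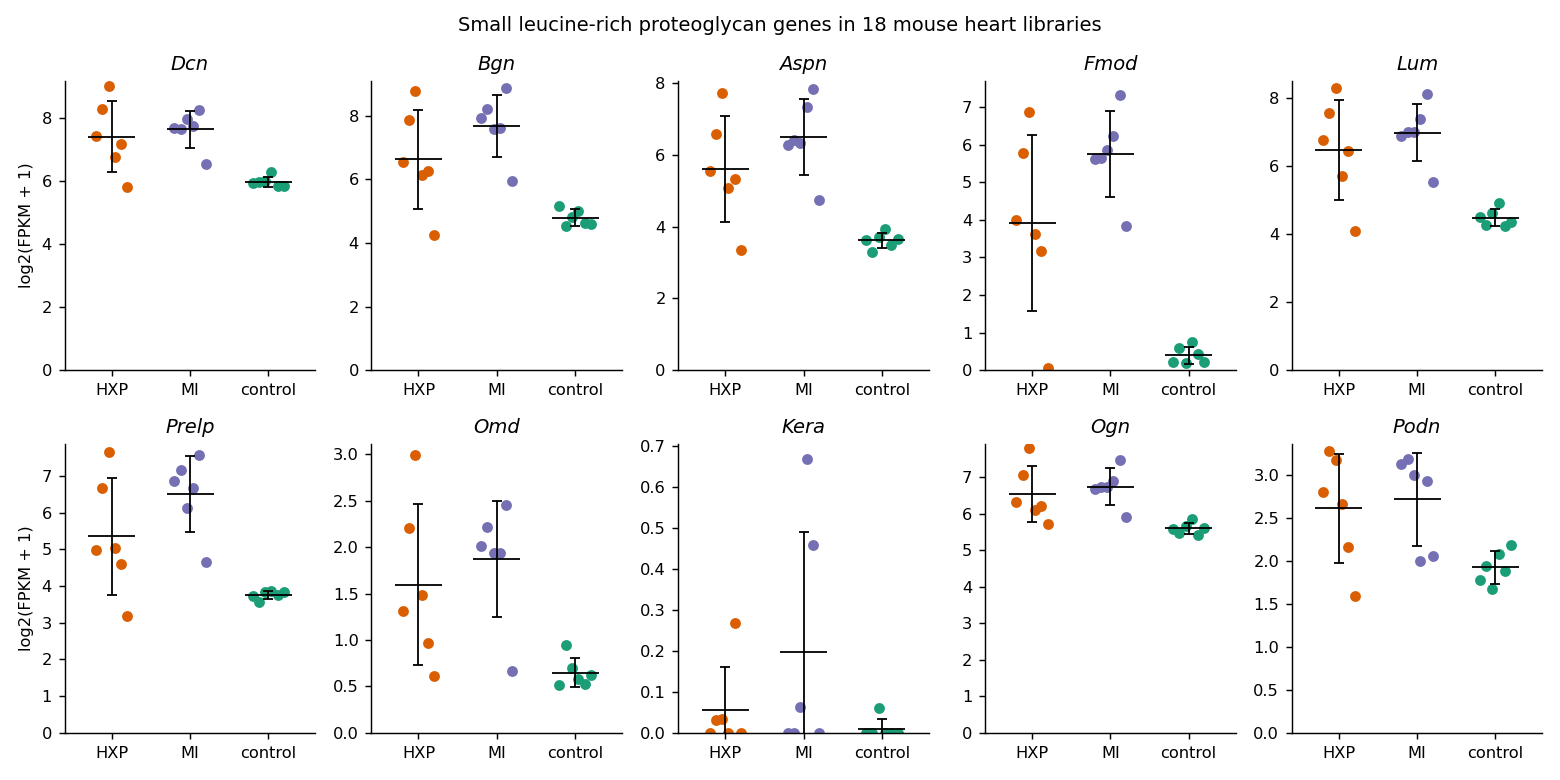
Level of each of the 10 genes as log2(FPKM + 1) in HXP, MI and control hearts. Each point is a library, and bars give the mean and SD of 6 libraries per group. For 7 genes every MI point lies above every control point. The HXP points spread from within or below the control range into the MI range, and above it for Dcn, Lum, Prelp, Omd, Ogn and Podn. The vertical scale differs between genes, and Kera stays under 0.7.

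Decorin, biglycan and asporin make up class I. Dcn (ENSMUSG00000019929, chr10:97479609-97518143, plus strand), which encodes the collagen-binding and TGF-beta-binding decorin, ranged from 55.4 to 520.6 FPKM with a median of 158.8 in HXP, from 93.2 to 307.7 with a median of 208.7 in MI, and from 56.4 to 77.1 with a median of 61.3 in control libraries. All 6 MI libraries and 5 of 6 HXP libraries were above every control, and HXP 6 was below every control. Mean Dcn in FPKM was 3.38 times as high in MI as in control hearts. The fitted difference of mean log2(FPKM + 1) was 1.66 (SE 0.40, limma adjusted p = 0.0143). Bgn (ENSMUSG00000031375, chrX:73483602-73495933, plus strand), biglycan, a matrix protein that can also signal to innate immune receptors, ranged from 18.1 to 432.6 FPKM with a median of 83.8 in HXP, from 60.7 to 461.4 with a median of 217.8 in MI, and from 22.0 to 35.1 with a median of 25.4 in control libraries. MI and control libraries did not overlap, HXP 6 was again below every control, and no HXP library exceeded the highest MI library. The MI mean was 8.88 times the control mean, and Bgn rose by 2.90 on the log2 scale (SE 0.57, limma adjusted p = 0.0136). Aspn (ENSMUSG00000021388, chr13:49544443-49567565, plus strand), asporin, named for its stretch of aspartate and able to bind collagen and TGF-beta, ranged from 9.28 to 209.6 FPKM with a median of 42.5 in HXP, from 25.9 to 227.6 with a median of 82.3 in MI, and from 8.78 to 14.4 with a median of 11.5 in control libraries. Here HXP 6 lay inside the control range and the other 5 HXP libraries lay above it. Aspn rose by 2.87 in MI on the log2 scale (SE 0.56, limma adjusted p = 0.0136).

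Class II held the largest difference of the family. Fmod (ENSMUSG00000041559, chr1:134037254-134048277, plus strand) encodes fibromodulin, a keratan sulfate proteoglycan that binds collagen I and guides its crosslinking by lysyl oxidase. Its level was 14.9, 53.9, 115.9, 11.4, 8.02 and 0.0473 FPKM in HXP 1 to 6, the last resting on 12 recovered reads. In MI libraries it ranged from 13.3 to 159.8 with a median of 53.1, and in control libraries from 0.134 to 0.687 with a median of 0.249 FPKM. The gene was thus below 1 FPKM in control hearts and in HXP 6, and at 8.02 FPKM or more in every other library. Mean Fmod was 67.0 ± 49.6 FPKM in MI and 0.328 ± 0.224 FPKM in control hearts (SD, n = 6 each), a ratio of 204. At 5.36 on the log2 scale (SE 0.81, limma adjusted p = 0.0127), it ranked number 3 of the 13710 genes tested.

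Lum (ENSMUSG00000036446, chr10:97565128-97572703, plus strand), lumican, a keratan sulfate proteoglycan known for ordering collagen in the cornea, ranged from 16.0 to 313.0 FPKM with a median of 96.8 in HXP, from 45.1 to 277.9 with a median of 126.9 in MI, and from 18.1 to 28.9 with a median of 20.6 in control libraries. HXP 3 was above every MI library and HXP 6 below every control. MI hearts had more Lum than controls, by 2.50 on the log2 scale (SE 0.53, limma adjusted p = 0.0139). Prelp (ENSMUSG00000041577, chr1:133910304-133921414, minus strand), which links collagen fibrils to basement membrane heparan sulfate, ranged from 8.04 to 200.4 FPKM with a median of 31.3 in HXP, from 24.3 to 189.5 with a median of 108.8 in MI, and from 10.9 to 13.7 with a median of 12.8 in control libraries. Its log2 fold change in MI was 2.75 (SE 0.59, limma adjusted p = 0.0139), and only 1 HXP library was above the MI median. The library kit is not stated to keep strand, and Prelp shares 350 exon bases with the antisense gene Gm15851, which was listed at no more than 0.136 FPKM in any library.

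Omd and Kera were the low members of class II. Omd (ENSMUSG00000048368, chr13:49582462-49592822, plus strand), osteomodulin, best known from mineralized tissue, ranged from 0.527 to 6.93 FPKM with a median of 1.64 in HXP, from 0.585 to 4.49 with a median of 2.94 in MI, and from 0.434 to 0.928 with a median of 0.516 in control libraries. MI 6 and HXP 6 lay inside the control range, and the other 5 libraries of each group lay above it. In MI hearts Omd rose by 1.22 on the log2 scale (SE 0.34, limma adjusted p = 0.0158). Kera (ENSMUSG00000019932, chr10:97606879-97613692, plus strand), keratocan of the cornea, was listed at 0 in 3 HXP, 3 MI and 5 control libraries. Its highest values were 0.204 FPKM in HXP 5, 0.589 FPKM in MI 4, 0.373 FPKM in MI 5 and 0.0433 FPKM in control 3. MI 4, MI 5 and HXP 5 are also the libraries with the skeletal muscle or lung markers named above, and the part of that tissue in the Kera values was not tested.

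Ogn and Podn belong to other classes. Ogn (ENSMUSG00000021390, chr13:49608046-49624501, plus strand), osteoglycin or mimecan, a small matrix protein of connective tissue, ranged from 51.4 to 220.9 FPKM with a median of 76.0 in HXP, from 58.7 to 176.9 with a median of 105.7 in MI, and from 41.6 to 56.8 with a median of 47.3 in control libraries. Every MI library was above every control. Ogn was raised in MI by 1.14 on the log2 scale (SE 0.29, limma adjusted p = 0.0146). Podn (ENSMUSG00000028600, chr4:108014791-108096445, minus strand), podocan, a collagen-binding member of a more distant class, ranged from 2.02 to 8.69 FPKM with a median of 5.64 in HXP, from 2.99 to 8.07 with a median of 6.80 in MI, and from 2.20 to 3.56 with a median of 2.77 in control libraries. Of the 6 MI libraries, 4 were above every control and the other 2, MI 4 and MI 6, overlapped the controls. Its rise in MI of 0.79 on the log2 scale (SE 0.27, limma adjusted p = 0.0287) was the smallest of the family, and the call was lost under 14 of 33 other settings, among them each of the 3 scalings.

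Markers of fibroblasts differed in the same comparison. Of 10 fibroblast markers 8 rose in MI, as did 6 of 6 markers of activated fibroblasts and 6 of 6 of matrix fibroblasts of scar, while 2 of 8 cardiomyocyte markers fell, against 40.1% of all genes higher and 3.21% lower. Under quantile normalization and median-ratio scaling 8 fibroblast markers rose and 1 fell, where 1869 and 2395 of all 13710 genes were higher and 2316 and 2068 lower. Of other cell types, 5 of 6 macrophage, 5 of 5 tested mesothelium and 3 of 6 smooth muscle and pericyte markers rose. So did 2 of 5 tested skeletal muscle, 1 of 3 tested adipocyte and 1 of 6 endothelial markers, shares near or below that of all genes. With quantile normalization those counts were 5, 5, 2, 0, 0 and 0 in the same order, and 1 smooth muscle and pericyte marker fell. Summed over the 10 fibroblast markers, the level was 199 to 1847 FPKM in HXP, 535 to 1087 FPKM in MI and 354 to 455 FPKM in control libraries, and all 10 were detected in every library. Macrophage markers summed to 18.7 to 125 FPKM in HXP, 33.0 to 94.3 FPKM in MI and 23.2 to 30.9 FPKM in control libraries, with HXP 3 highest, as for 8 of the 9 members, and HXP 6 lowest, as for all 9. Within HXP the sums of fibroblast, activated fibroblast, scar matrix fibroblast and endothelial markers were likewise highest in HXP 3 and lowest in HXP 6. Those of smooth muscle and pericyte, mesothelium and adipocyte markers were highest in HXP 2. The fibroblast sum of HXP 6, 199 FPKM, was below every control. Adipocyte markers summed to 1.37 FPKM in MI 5, which was highest for 8 members, and to 332 FPKM in MI 3. In HXP libraries they summed to 452 FPKM in HXP 2, 396 FPKM in HXP 3 and 0.0565 FPKM in HXP 6, which was lowest for all 9. In whole tissue, more cells of a type and more RNA per cell cannot be told apart, and the part of cell numbers, of whichever type, in the member values was not tested. Without MI 4 and MI 5, the model of 3 groups gave the 9 members log2 fold changes of 0.91 to 4.85 but called none of them (adjusted p of 0.0555 to 0.0635) and 0 of all genes, although 5998 genes had an unadjusted p below 0.05. A model of MI and control libraries alone, also without MI 4 and MI 5, called all 9 members and 7423 genes. Within the largest run, with 5 MI and 3 control libraries, Fmod alone passed at 5.06 (adjusted p = 0.0279), and the other 8 were higher by 0.69 to 2.64 with adjusted p of 0.0512 to 0.186. In the smallest run MI 5 exceeded both control libraries for all 9 members, by 1.01 to 6.83. With the run as a covariate over all libraries, 8 of the 9 passed, without Podn.

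**Figure D2:**
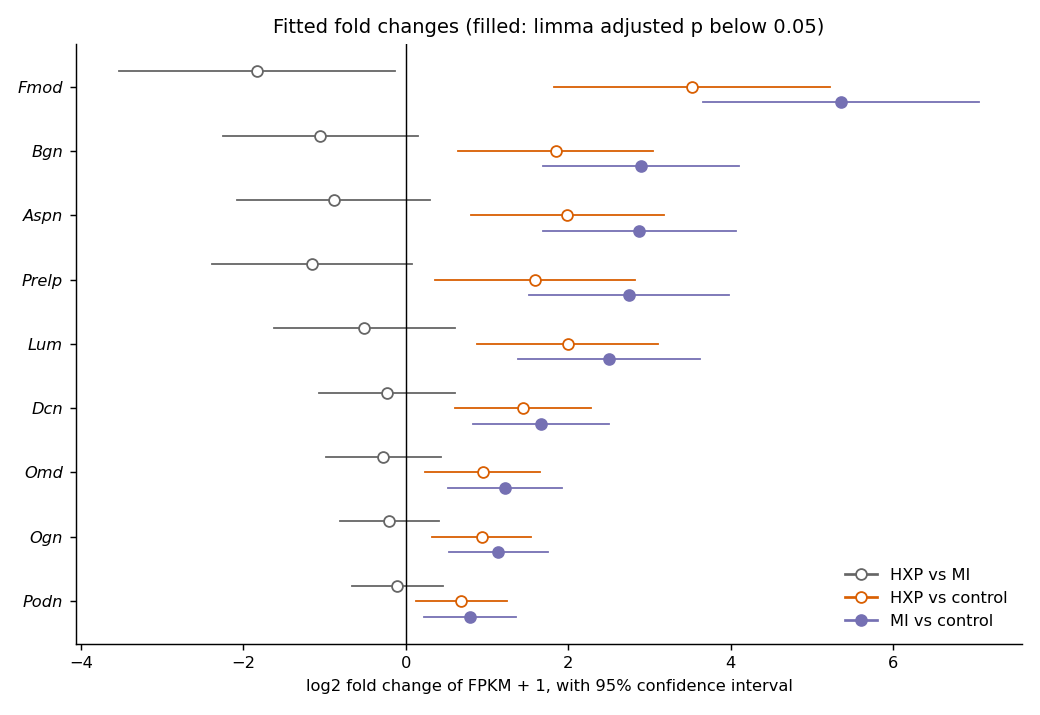
Fitted log2 fold change of FPKM + 1 with its 95% confidence interval for the 9 tested genes, ordered by the MI against control value. Filled points passed a limma adjusted p of 0.05, which all 9 did for MI against control and none did for HXP against MI or HXP against control. Fmod spans the widest range, from -1.84 for HXP against MI to 5.36 for MI against control.

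The comparison of HXP with MI hearts asks what HXP treatment changes in the infarction model. No member passed the test in this comparison. By limma, 0 of the 13710 genes were called higher and 0 lower (0% each), 259 were higher (1.89%) and 1632 lower (11.9%) at an unadjusted p below 0.05, and voom on recovered reads called 0 genes. Fmod was the 1 member of 9 with an unadjusted p below 0.05. Its estimate was -1.84 (95% confidence interval -3.54 to -0.14, limma adjusted p = 0.339). Prelp followed with -1.16 (interval -2.39 to 0.07), Bgn with -1.05 (interval -2.25 to 0.15) and Aspn with -0.89 (interval -2.07 to 0.30). Lum was at -0.51, Omd at -0.28, Dcn at -0.23, Ogn at -0.20 and Podn at -0.10, and the Dcn interval was -1.06 to 0.61. The median over the members was -0.51, against -0.12 over all genes. No member had all HXP libraries above all MI libraries or all below them, as 0.117% and 0.306% of all genes had. A p that misses the threshold does not show that HXP and MI hearts had the same level. In the largest run, which has 2 HXP and 5 MI libraries, Fmod was at -0.96 and Bgn at -0.39, while Dcn was at 0.21, Lum at 0.24, Ogn at 0.044 and Podn at 0.047.

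Against control, the HXP libraries share their control group with the MI comparison, so the values stand side by side without a measure of their likeness. The 9 members averaged 0.69 (Podn) to 3.53 (Fmod) higher in HXP on the log2 scale, and none passed (limma adjusted p of 0.0590 to 0.111). Across all genes limma called 0.0948% higher and 0.219% lower, and voom on recovered reads also called 0 members. All 9 members had an unadjusted p below 0.05, as 27.7% of all genes did on the higher side and 5.45% on the lower. None had all HXP libraries above all control libraries, as 1.13% of genes had. Fmod was at 3.53, Lum at 1.99, Aspn at 1.99, Bgn at 1.84, Prelp at 1.59, Dcn at 1.44, Omd at 0.95, Ogn at 0.94 and Podn at 0.69. This outcome turned on 1 library: without HXP 6 all 9 members passed, at 0.89 to 4.30 with adjusted p of 0.00292 to 0.0228. The same fit called 3855 of the 13710 genes higher and 381 lower, so the change was not particular to the members. Over all other settings together the members' adjusted p ran from 0.00176 to 0.330. Scaling mattered as well. Quantile normalization and median-ratio scaling each called 6 members (Fmod, Lum, Aspn, Bgn, Dcn and Ogn), and scaling to non-mitochondrial reads called 5, without Bgn. Each scaling also called more of all genes than the 43 called as deposited, by counts given below with the other settings. Within the largest run the 9 members were higher by 0.74 to 4.09, and none passed with 2 HXP and 3 control libraries. In the run of 4 HXP libraries and 1 control they were higher on average by 0.78 to 3.43, and for Omd and Ogn alone all 4 HXP libraries exceeded that control. With the run as a covariate none passed.

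The spread inside the HXP group was larger than in either other group. The coefficient of variation over 6 libraries was, for Dcn, 78.0% in HXP, 33.4% in MI and 12.1% in control, and for Fmod 130.1%, 74.1% and 68.4%. HXP 3 was the highest HXP library for 8 of the 9 members and HXP 2 for Podn. HXP 6 was the lowest for all 9, and lay below every control for 6 of them. HXP 1 to HXP 4 were above every control for all 9 members, and HXP 5 was for 8. Among MI libraries, MI 5 was highest for 8 members, with MI 2 highest for Podn, and MI 6 was lowest for 8, with MI 4 lowest for Podn. Col1a1, the main fibrillar collagen, ran the same way, with 184.8, 185.9, 345.0, 50.7, 41.3 and 2.29 FPKM in HXP 1 to 6, 74.1 to 668.3 FPKM in MI and 9.25 to 16.7 FPKM in control libraries. Whether HXP 6 came from an infarcted heart is not stated.

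**Figure D3:**
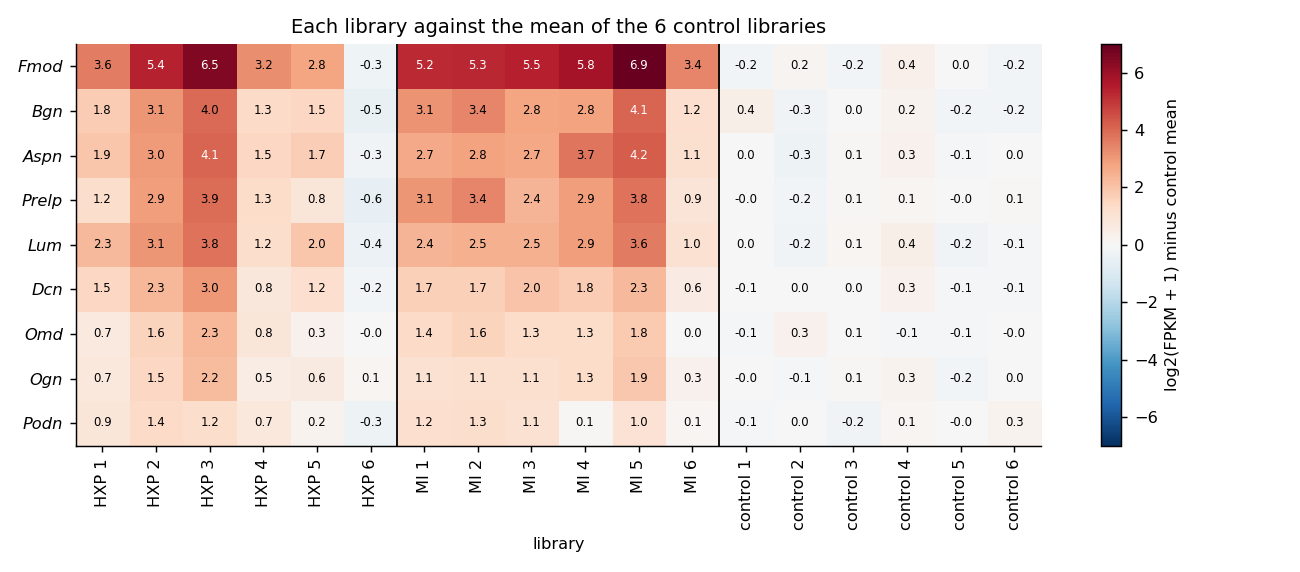
Difference of each library from the mean of the 6 control libraries, in log2(FPKM + 1), for the 9 tested genes (downward) and the 18 libraries (across, HXP, then MI, then control). Colour runs with the printed value, red above and blue below the control mean. HXP 3 and MI 5 are the darkest columns, and HXP 6 looks like the control columns.

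Members varied together inside the groups. After each group's mean was subtracted, Pearson's r of log2(FPKM + 1) over the 18 libraries was 0.63 to 0.98 for the 36 pairs of tested members, with a median of 0.94, and 26 pairs were above 0.9. The lowest was Aspn with Podn. The same MI and HXP libraries lie at the ends for most members. Libraries also differ in their share of mitochondrial reads, 20.5% in HXP 3, 20.4% in MI 5 and 45.5% in HXP 6. For these reasons r is given as a description. Among 10732 other genes of at least 1 FPKM, those most like the mean of the members were Timp2 (r = 0.996), an inhibitor of matrix metalloproteinases, Abi3bp (0.993), a matrix protein, Antxr1 (0.991), a collagen-binding receptor, Col8a1 (0.991), a short-chain collagen, and Pdgfrl (0.991). Tgfb3 (0.986) and Tgfbr2 (0.986), a TGF-beta ligand and receptor, were also among the top 10. Taken singly, Bgn was most like Col8a1 (0.994), Lum most like the matricellular gene Postn (0.986), Dcn most like the elongation factor Eef1a1 (0.988) and Fmod most like Abi3bp (0.985), while Podn was most like Pik3cd (0.942).

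Ratios of members within a library remove most of that library's scale. They were taken as log2 of (FPKM + 0.1), a constant that raises the low Fmod values of control hearts and of HXP 6, and compared with a two-sided exact permutation test of the 924 regroupings, whose smallest p is 0.00216, adjusted over 15 tests. All 5 ratios differed between MI and control hearts, with no overlap of the 6 MI and 6 control libraries in any of them (exact p = 0.00216, adjusted p = 0.00649 for each). Ratios of other gene pairs were not counted. Of single genes, 27.9% had every MI library above every control and 1.39% every one below. All ratios but Fmod to Lum hold Dcn, and they draw on the same values as the fold changes above, so they are not independent results. Linear Bgn to Dcn ranged from 0.652 to 1.499 in MI and from 0.353 to 0.584 in control libraries, Aspn to Dcn from 0.278 to 0.755 in MI and 0.142 to 0.205 in control, and Lum to Dcn from 0.485 to 0.903 in MI and 0.292 to 0.376 in control. Measured against Dcn, then, Bgn, Aspn and Lum rose by a further 1.26, 1.29 and 0.87 on the log2 scale. Fmod to Lum, a ratio of closely related keratan sulfate proteoglycans, ranged from 0.295 to 0.575 in MI and 0.00978 to 0.0324 in control libraries, a log2 difference of 4.55. That size depends on the constant: it was 5.05 with no constant, where the ratio ranged from 0.294 to 0.575 in MI and 0.00563 to 0.0271 in control libraries, and 2.86 with a constant of 1, and it passed under both. Dcn to Col1a1 ranged from 0.461 to 1.26 in MI and 3.80 to 6.70 in control libraries, and fell by 2.39 on the log2 scale, so the collagen rose more than decorin. In the largest run, with 5 MI and 3 control libraries, the 5 differences were 1.20, 1.05, 0.69, 4.69 and -2.08 in the order given, and none passed after adjustment (adjusted p = 0.107 for each).

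HXP hearts differed from MI hearts in 3 of the 5 ratios. Bgn to Dcn averaged -0.81 ± 0.47 in HXP and 0.03 ± 0.50 in MI (log2, SD, n = 6 each; exact permutation p = 0.0152, adjusted p = 0.0236), with 4 of 6 HXP values under the whole MI range. Fmod to Lum averaged -3.07 ± 1.95 in HXP and -1.25 ± 0.31 in MI (exact permutation p = 0.00433, adjusted p = 0.0108), where HXP 3 lay inside the MI range and the other 5 HXP libraries lay under it. Dcn to Col1a1 averaged 1.45 ± 1.64 in HXP and -0.17 ± 0.50 in MI (exact permutation p = 0.00866, adjusted p = 0.0186), where 5 of 6 HXP libraries exceeded every MI library. Aspn to Dcn was lower in HXP by a difference of -0.68 (exact permutation p = 0.0498, adjusted p = 0.0622) and Lum to Dcn by -0.29 (exact permutation p = 0.227, adjusted p = 0.244), and neither passed. Without MI 4 and MI 5 the Bgn to Dcn difference was -0.74 (adjusted p = 0.0779) and that of Dcn to Col1a1 was 1.39 (adjusted p = 0.0571), and neither passed, while Fmod to Lum passed at -1.68 (adjusted p = 0.0317). Without HXP 6 the Fmod to Lum difference was -1.08 and that of Dcn to Col1a1 was 1.00, and without HXP 5 and HXP 6 Bgn to Dcn was at -0.61 (adjusted p = 0.0769). Over all other settings the adjusted p ran from 0.0186 to 0.214 for Bgn to Dcn, from 0.0108 to 0.204 for Fmod to Lum and from 0.0108 to 0.204 for Dcn to Col1a1. In the largest run, where 2 HXP libraries met 5 MI libraries and the smallest exact p is 0.0952, the same differences were -0.61, -1.26 and 1.25.

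The same ratios set HXP against control hearts. Aspn to Dcn was higher in HXP by 0.61 (exact permutation p = 0.0130, adjusted p = 0.0236), Lum to Dcn by 0.58 and Fmod to Lum by 2.74 (each exact permutation p = 0.0173, adjusted p = 0.0236). The Fmod to Lum difference was 2.96 with no constant and 1.53 with a constant of 1, and passed under both. For each of these, 5 of 6 HXP libraries were above every control. Bgn to Dcn was at 0.42 (exact permutation p = 0.0801, adjusted p = 0.0924) and Dcn to Col1a1 at -0.78 (exact permutation p = 0.301, adjusted p = 0.301), and neither passed. Without HXP 6, Bgn to Dcn was at 0.58 (adjusted p = 0.0177) and Dcn to Col1a1 at -1.39 (adjusted p = 0.00722), and both passed. In the largest run, where 2 HXP and 3 control libraries allow no exact p under 0.2, Aspn to Dcn was at 0.58, Lum to Dcn at 0.72 and Fmod to Lum at 3.44.

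**Figure D4:**
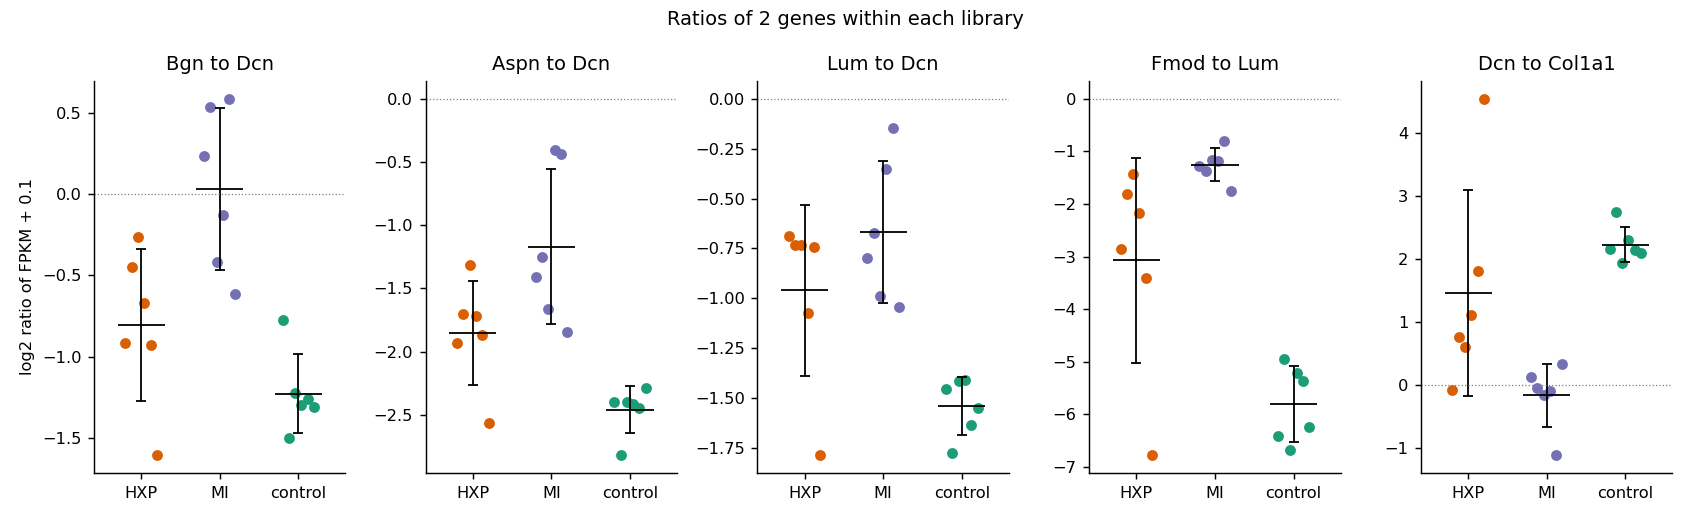
Ratios of a pair of genes within each library, as log2 of FPKM + 0.1, in HXP, MI and control hearts. Points are libraries, and bars give the mean and SD of 6 libraries per group. In every panel the MI and control points are apart, and the HXP mean lies between their means.

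The make-up of the family's RNA differed between groups. The 10 genes summed to 783.8 ± 690.0 FPKM in HXP, 999.1 ± 476.8 FPKM in MI and 187.1 ± 22.3 FPKM in control libraries (SD, n = 6 each). Dcn held 29.96 ± 3.19% of the sum in HXP, 22.8 ± 4.76% in MI and 33.6 ± 1.80% in control, and Ogn held 17.1 ± 7.69% in HXP, 12.1 ± 3.02% in MI and 25.5 ± 0.875% in control. Bgn held 17.4 ± 3.55% in HXP, 23.2 ± 4.23% in MI and 14.4 ± 2.02% in control. Fmod held 2.997 ± 2.05% in HXP, 6.10 ± 1.73% in MI and 0.173 ± 0.107% in control. The genes that dominate the control heart thus held less of the sum in MI hearts, and Bgn and Fmod held more. These shares were not tested, since they add up to a whole.

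Ordered by median FPKM, per annotated exon length, control hearts ran Dcn, Ogn, Bgn, Lum, Prelp, Aspn, Podn, Omd, Fmod and Kera. Each gene was above the next in all 6 control libraries, except that Prelp exceeded Aspn and Omd exceeded Fmod in 5 of 6. MI hearts ran Bgn, Dcn, Lum, Prelp, Ogn, Aspn, Fmod, Podn, Omd and Kera, where Bgn exceeded Dcn in only 3 of 6 libraries, Prelp exceeded Ogn in 3 of 6 and Ogn exceeded Aspn in 4 of 6, so those neighbours are not ordered beyond their spread. HXP hearts ran Dcn, Lum, Bgn, Ogn, Aspn, Prelp, Fmod, Podn, Omd and Kera, with Dcn first in all 6 libraries and Lum above Bgn in 2 of 6. Fmod was above Podn in 5 of 6 HXP and all 6 MI libraries, and below both Podn and Omd by median in control hearts.

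**Figure D5:**
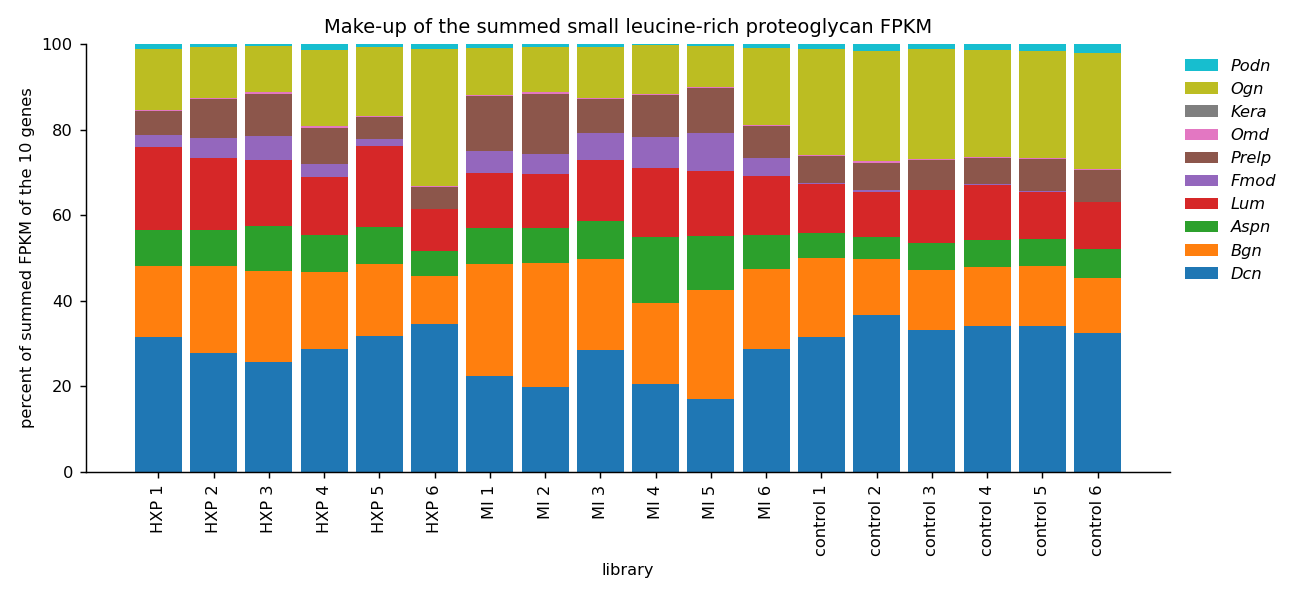
Share of each of the 10 genes in their summed FPKM, as percent, for the 18 libraries in the order HXP, MI, control. Fmod is a visible band in every MI library and in 5 of 6 HXP libraries, and is too thin to see in HXP 6 and in the controls.

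Of 8 further small leucine-rich proteoglycans and close relatives, 3 could be tested, and these 3 rose in MI, where 40.1% of all genes were higher. Chad, chondroadherin, a collagen-binding protein of cartilage, averaged 8.05 ± 7.27 FPKM in MI and 0.122 ± 0.0587 FPKM in control hearts (SD, n = 6 each; log2 fold change 2.59, limma adjusted p = 0.0139), the control values resting on 7 to 29 recovered reads. Ecm2, the neighbour of Aspn, was at 1.33 (limma adjusted p = 0.0155) and Tsku, which can bind TGF-beta and BMP ligands, at 1.05 (limma adjusted p = 0.0142). Epyc, the neighbour of Kera, ranged from 0 in HXP 6 to 1.64 FPKM in HXP 3, from 0.193 to 1.55 FPKM in MI, and was listed at 0 in all 6 control libraries. Its mean was too low for the test, and Optc, Chadl, Nyx and Podnl1 were also below the filter. Mean FPKM in MI over that in control hearts was 0.942 for Optc, 1.06 for Chadl, 1.04 for Nyx and 4.24 for Podnl1, untested values that rest on at most 111 reads per library. Cartilage markers summed to at most 3.42 FPKM in HXP, 11.95 FPKM in MI and 0.163 FPKM in control libraries, and tendon markers to at most 7.03 FPKM in HXP, 24.1 FPKM in MI and 1.41 FPKM in control libraries. The part of such tissue in these values was not tested.

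Genes that build and modify the sugar chains are read against all genes tested, of which 40.1% were higher and 3.21% lower in MI. Of 19 tested enzymes of the chain linker and of chondroitin and dermatan sulfate, 14 rose in MI and 0 fell, with a median log2 fold change of 0.73. The count was 9 higher and 1 lower with quantile normalization, 11 and 1 with median-ratio scaling, and 12 and 0 with non-mitochondrial scaling. Those 3 scalings called 1869, 2395 and 3095 of all 13710 genes higher and 2316, 2068 and 1283 lower. Xylt1, which starts the chain, was at 0.97 (limma adjusted p = 0.0139), Chsy1, which extends it, at 1.09 (limma adjusted p = 0.0139), and Dse, the epimerase that makes dermatan sulfate, at 1.496 (limma adjusted p = 0.0139). Of 5 tested enzymes of keratan sulfate, 2 rose and 0 fell, a share like that of all genes, with a median of 0.36 that was -0.01 with quantile normalization, which called 1 of them: B4galt1 was at 0.66 (limma adjusted p = 0.0155) and Fut8 at 0.36 (limma adjusted p = 0.0192), while B4galt4 at 0.32 did not pass (limma adjusted p = 0.0590). The median over all genes was 0.27.

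The lists of partners stand against the same 40.1% of all genes. Of 17 tested receptors and signalling partners 13 rose in MI (median 1.03), among them Tgfb3 at 2.79, Ccn4 at 1.98 and Tgfb2 at 1.40. Of 16 fibrillar collagens and their partners 15 rose (median 3.17), among them fibronectin Fn1 at 4.06, the crosslinking enzyme Lox at 3.86 and Col12a1 at 2.94. Of 11 proteases known to process these proteins 10 rose (median 1.64), among them Mmp2 at 2.79, Ctsk at 2.75 and Mmp14 at 2.37. Of 18 other proteoglycans 15 rose (median 0.91), among them Gpc3 at 2.08, Vcan at 1.46 and Prg4 at 1.22. With quantile normalization those 4 counts were 9, 15, 6 and 11, with median-ratio scaling 12, 15, 7 and 12, and with non-mitochondrial scaling 12, 15, 7 and 12, and each of these called 1 other proteoglycan lower. In the same order, these 3 scalings called 1869, 2395 and 3095 of all 13710 genes higher and 2316, 2068 and 1283 lower. On the deposited scale, by limma 0 genes of these lists fell in MI, and no gene of these lists fell at an unadjusted p below 0.05 or was called lower by voom. In HXP against MI limma called 0 genes in each of the 7 lists. At an unadjusted p below 0.05, 1 relative, 5 chondroitin and dermatan sulfate enzymes, 0 keratan sulfate enzymes, 3 receptors and partners, 6 collagen genes, 2 proteases and 5 other proteoglycans were lower there, where 11.9% of all genes were, 0 were higher, against 1.89% of all genes, and voom called 0. In HXP against control limma and voom again called 0 in each list, and at an unadjusted p below 0.05 there were 2 relatives, 6 chondroitin and dermatan sulfate enzymes, 2 keratan sulfate enzymes, 9 receptors and partners, 15 collagen genes, 6 proteases and 10 other proteoglycans higher, with 1 partner and 1 other proteoglycan lower, against 27.7% of all genes higher and 5.45% lower. The 3 scalings called 5 to 8 of the 16 collagen genes higher in HXP than in control. The counts of all genes called there under each scaling are given below with the other settings.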

How the data were processed

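Total RNA of 18 mouse heart libraries was depleted of ribosomal RNA before sequencing, per the labels' protocols. The authors deposited 1 value per Ensembl gene and library. The deposited values are FPKM, a unit inferred from the values, since 97.4% to 97.9% of the 10316 to 12348 low values per library, times exon length, lay within 0.1 of a whole read. Those steps gave 75.8 to 81.1 M reads per library. Per the submitters' processing notes the build was GRCm38 and limma was used, while the sources used here name no aligner or counter. IDs were matched to GENCODE M21 (34097 of 34150).

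A model of 3 groups was fitted to log2(FPKM + 1) with limma 3.58.1 (R 4.3.3, trend on) over 13710 genes, those averaging 0.5 FPKM or more. Benjamini-Hochberg adjusted p below 0.05 over all of them was called, and all tests were two-sided. Fold changes on this scale understate the change of low genes. The series' design text gives 6 mice per group, and p-values measure the spread between libraries, of mice together with dissection and library making. In the limma model the 3 groups share 1 estimate of the spread, so each comparison also carries the spread of the group left out. For Dcn in MI against control the SE was 0.40 in this model and 0.22 with MI and control libraries alone. Ratios were tested by exact permutation in Python 3.11.15 with scipy 1.17.1. The fit was tested on simulated data. All 10 members are named, with the 3 genes of smallest p in MI against control from each of 7 lists, and the genes most like the members among those of at least 1 FPKM. The family, the lists and the settings were chosen with earlier results of these data known. Same-numbered libraries were not paired by the labels, and the check of pairing is given with the other settings. The closest libraries, MI 1 and MI 2, differed by more than sampling noise and were kept as 2. Other settings were 3 scalings, the filter, the pseudocount, voom on recovered reads, a robust prior, fits of only the groups compared, a replicate block, the run of library numbers, and leaving libraries out. The fit of only the compared groups without MI 4 and MI 5, and ratios with no constant, were chosen after seeing the data.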

Additional observations from a re-analysis of the deposited data

Results flagged for a closer look

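In 6 of 42 groups of 6 libraries, the highest or lowest library lay apart from the others by Dixon's criterion, which chance alone meets in about 1 of 20 groups. Lum to Dcn was -1.79 and Fmod to Lum -6.77 (log2) in HXP 6, below the other 5 HXP libraries. Among MI libraries, Dcn at 93.2 FPKM and Omd at 0.585 FPKM were lowest in MI 6, and Dcn to Col1a1 was lowest in MI 5 at -1.12 (log2). Among control libraries, Aspn to Dcn was lowest in control 2 at -2.82 (log2).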

How the results depend on the processing

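Direction in MI against control was kept by all 9 members under every setting that tested them (Podn and Omd average under 5 FPKM). Of 5934 genes called there, 2292 were called in a fit of genes averaging 5 FPKM or more, 79 (and 1 member) in the largest run, and 0 (and 0 members) without MI 4 and MI 5 in the model of 3 groups. Leaving out 1 library at a time gave 2656 to 6972 genes and 8 to 9 members, with 2656 without MI 5 and 3892 without control 2.

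In HXP against MI no setting called a member. The 0 genes called became 4 with quantile normalization, 5 with median-ratio scaling, 1 with scaling to non-mitochondrial reads, 3 in the largest run and 0 to 71 with 1 library left out, the highest without HXP 1. Estimates below 0 turned positive in the largest run for Dcn (0.21), Lum (0.24), Ogn (0.044) and Podn (0.047), and without HXP 5 and HXP 6 for Dcn (0.24), Lum (0.098), Omd (0.13), Ogn (0.087) and Podn (0.26). Ogn turned to 0.021 without MI 4 and MI 5, in the model of 3 groups and in that of the compared groups only, and Podn to 0.070 with quantile normalization, 0.020 with median-ratio scaling and 0.013 with the run as a covariate. With 1 library left out Dcn ranged from -0.55 to 0.096 and Podn from -0.25 to 0.099, both positive without HXP 6.

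In HXP against control the 43 genes called became 1297 with quantile normalization, 1267 with median-ratio scaling and 1011 with non-mitochondrial scaling, which called 6, 6 and 5 members. The count was 0 with no filter, 85 (and 1 member) for genes averaging 5 FPKM or more, 103 with a pseudocount of 0.1, 5 with the compared groups only, 0 with the run as a covariate, 3 in the largest run, 15 with voom, 16 with MI 1 and MI 2 averaged, 20 without MI 4 and MI 5, and 5967 (and 9 members) without HXP 5 and HXP 6. With 1 library left out it was 0 to 4236 genes and 0 to 9 members, the highest without HXP 6.

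The ratios changed as follows. The constant added to FPKM changed no call, but with a constant of 1 Fmod to Lum was 2.86 for MI and 1.53 for HXP against control, and with none 5.05 and 2.96. Without MI 4 and MI 5, HXP against MI gave -0.74 for Bgn to Dcn and 1.39 for Dcn to Col1a1, which no longer passed. Without HXP 5 and HXP 6, Bgn to Dcn was -0.61 against MI and no longer passed, while against control Bgn to Dcn at 0.65 and Dcn to Col1a1 at -1.63 now passed. In the largest run no ratio passed: Bgn to Dcn was 1.20 for MI against control and -0.61 for HXP against MI, Aspn to Dcn 1.05 for MI and 0.58 for HXP against control, and Lum to Dcn 0.69 for MI against control, 0.033 (turned positive) for HXP against MI and 0.72 for HXP against control. There Fmod to Lum was 4.69, -1.26 and 3.44 in the same order, and Dcn to Col1a1 -2.08 for MI against control and 1.25 for HXP against MI. With 1 library left out, Aspn to Dcn in HXP against MI ranged from -0.82 to -0.53 and passed without HXP 3 and without MI 6. In HXP against control Bgn to Dcn ranged from 0.31 to 0.58 and Dcn to Col1a1 from -1.39 to -0.47. With fewer libraries the smallest p that these tests can reach is higher. Some calls were lost and others gained, and why was not tested.

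Correlations of the deviations of same-number libraries ran from -0.31 to 0.63, and 5 of 18 were over 0.1. The highest was MI 6 with HXP 6. Pairs of different number were not set beside them, so this does not settle whether same-number libraries deviate together. With the replicate block the genes called were 1 in HXP against MI and 1 in HXP against control, and no member's call changed. Sign flips of the 6 paired differences, whose smallest p is 0.03125, left every ratio call at an adjusted p of 0.0781, with the same differences: 1.26 and -0.84 for Bgn to Dcn, 1.29 and 0.61 for Aspn to Dcn, 0.87 and 0.58 for Lum to Dcn, 4.55, -1.82 and 2.74 for Fmod to Lum, and -2.39 and 1.62 for Dcn to Col1a1.

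Depth limits Kera, Fmod below 1 FPKM and, among the relatives, Epyc, Optc, Podnl1, Nyx, Chadl and Chad in control hearts and HXP 6. For the other members the spread between libraries sets the precision, above all within HXP. Values per gene cannot separate isoforms, and protein was not measured.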
